A study of Homo sapiens with 36 samples.

Results

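DST, MACF1 and PLEC encode cytolinkers, and SPTAN1 and SPTBN1 encode the αII and βII spectrins, long rod proteins of the membrane skeleton. Clusters of PAR-CLIP, a method that crosslinks RNA-binding proteins to RNA labeled with 4-thiouridine (4SU), were taken for these 5 genes, of 11445 genes with a cluster, by the position of the cluster midpoint on the strand and within the body of the gene (GENCODE 44 on GRCh38). The 5 genes held 460 of the 278185 clusters in 18 lists, DST and MACF1 most of them, and PLEC held 1. The genes were chosen by the numbers of clusters and consensus clusters per gene in these lists, so comparisons of their cluster numbers between groups are descriptions without a test.

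The lists came from HEK293 Flp-In T-REx cells, a human embryonic kidney line with a single site for an inducible transgene, without knockout of SCAF4 or SCAF8 in any group. One line expressed FLAG-SCAF4, one FLAG-SCAF8, and the parental line carried no FLAG-tagged protein. The labels give 100 ng/mL doxycycline overnight for the 2 FLAG lines and name none for the parental line, whose FLAG IP is called control IP. The study's methods differ from the labels here, with a higher dose and with doxycycline for the parental line too, so that whether the control cells received doxycycline is unsettled. All lines received 100 μM 4SU overnight and 500 μM 4SU for 2 h before 2000 J/m2 of light at 365 nm. Each line gave 3 replicates of IP and 3 of input, the RNA of the same extract before the IP, and soluble and chromatin fractions were joined into 1 list per replicate. SCAF4 and SCAF8 are related proteins that bind the tail of RNA polymerase II and nascent RNA, and the study asked which transcripts they occupy. The tagged proteins came from a transgene beside the endogenous genes, so that an IP list describes the tagged protein.

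Spectraplakins such as dystonin (DST) and MACF1 bind actin filaments with one end and microtubules with the other, and their rods are built of spectrin repeats. Plectin (PLEC) ties intermediate filaments to actin and to adhesion sites, and spectrins form tetramers of α and β chains under the membrane. The genes have many exons and several promoters, and DST and MACF1 are long genes whose longest isoforms each contain 1 very long internal exon.

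The 30 nt at the middle of the region found in the most SCAF4 and SCAF8 IP lists, among regions without a cluster of any input or control IP, mark for DST, MACF1, SPTAN1 and SPTBN1 the site with the most recurrent SCAF signal outside the background. Each is read 5′ to 3′ on the transcribed strand of GRCh38, and capitals mark a match to GCAGG, 1 of the motifs searched.
DST exon 47, chr6:56597840-56597869, minus strand: tcaagaaggtgatggcaagtcagcaattgg
MACF1 exon 25, chr1:39310319-39310348, plus strand: ggatagtcgtgactctgtgctgttctcagt
SPTAN1 exon 5, chr9:128574734-128574763, plus strand: aggaatcaaactgctGCAGGcccagaagtt
SPTBN1 exon 17, chr2:54632654-54632683, plus strand: tggacgccaatgaggagaagatcaatgctg

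The MACF1 exon 25 region was found in all 6 SCAF IP lists and in no input or control IP list. The DST exon 47 region was found in 2 SCAF4 and 3 SCAF8 lists, the SPTBN1 exon 17 region in 3 SCAF4 and 2 SCAF8 lists, and the SPTAN1 exon 5 region in 2 SCAF4 lists and 1 SCAF8 list. All 4 lie in coding exons.

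The number of clusters per list, the only measure of depth, was between 1621 and 54404, with the fewest in control IP. Read depth is unknown because the lists hold no reads. A gene can therefore be compared between lists by clusters per 10000 clusters of the list, and its absolute number follows the size of the list. As labeled, the SCAF4 gene held 17, 16 and 17 clusters in the inputs of the FLAG-SCAF4 line and at most 7 in the other inputs. The labels do not say whether replicates were separate cultures, and all p-values measure only the spread between lists.

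DST lies at chr6:56457987-56954830 on the minus strand, and exons were numbered on its longest isoform, DST-241, which has 104 exons and 24709 nt. In replicates 1, 2 and 3, DST held 10, 45 and 36 clusters of SCAF4 IP. The 3 SCAF8 IP lists followed with 15, 13 and 25 and the control IP lists with 6, 1 and 1. Inputs held 3, 1 and 2 clusters for FLAG-SCAF4 cells, 2, 8 and 4 for FLAG-SCAF8 cells, and 10, 1 and 2 for parental cells. The raw numbers were highest in the SCAF IPs, but those lists were also the largest. Per 10000 clusters, DST held 8.05 ± 2.67 (SD, n = 3) in SCAF4 IP, 6.36 ± 0.65 in SCAF8 IP, 5.57 ± 1.08 in control IP and 4.13 ± 2.31 in the 9 inputs. All 3 SCAF4 IP lists (5.27 to 10.6) lay above their 3 inputs (1.96 to 4.17), an order found in 20.8% of all genes with a cluster, whereas the SCAF8 IP lists overlapped with theirs and both overlapped with control IP.

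MACF1, at chr1:39081316-39487177 on the plus strand, was followed on MACF1-230 with 101 exons and 24340 nt. MACF1 clusters numbered 21, 54 and 33 in SCAF4 IP, 19, 10 and 18 in SCAF8 IP, and 8, 3 and 1 in control IP. The inputs gave 7, 4 and 3, then 4, 3 and 5, then 10, 2 and 3, in the order of lines above. Per 10000 clusters, MACF1 held 10.2 ± 0.72 (SD, n = 3) in SCAF4 IP, 5.78 ± 1.63 in SCAF8 IP, 9.14 ± 3.48 in control IP and 5.68 ± 1.64 in the 9 inputs. The 3 SCAF4 IP lists (9.72 to 11.1) lay above all SCAF8 IP lists (4.34 to 7.54), as in 6.98% of genes, and above their own inputs (5.98 to 7.82), but not above control IP, whose highest list reached 12.96.

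SPTAN1, at chr9:128552558-128633662 on the plus strand, held few clusters outside the SCAF IPs. SCAF4 IP gave 2, 12 and 4 SPTAN1 clusters and SCAF8 IP 3, 3 and 6, whereas the control IP and the 9 inputs together gave 3 clusters, each in a different list. Per 10000 clusters this was 1.48 ± 0.63 (SD, n = 3) in SCAF4 IP, 1.43 ± 0.23 in SCAF8 IP and 0.35 ± 0.60 in control IP. All 6 SCAF IP lists (1.05 to 2.21) lay above all control IP lists (0 to 1.04), an order found for SCAF4 IP in 24.4% and for SCAF8 IP in 17.4% of genes. The order rests on single clusters, since the lowest SCAF IP list held 2 and the highest control IP list 1. SPTBN1, at chr2:54456317-54671446 on the plus strand, gave 8, 6 and 5 clusters in SCAF4 IP, 6, 1 and 3 in SCAF8 IP, and 2, 0 and 0 in control IP. Per 10000 clusters its level was 2.26 ± 1.70 (SD, n = 3) in SCAF4 IP and 1.22 ± 1.01 in SCAF8 IP, with the highest value of each in replicate 1.

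PLEC, at chr8:143915153-143976734 on the minus strand, held 1 cluster in all 18 lists, in SCAF4 IP replicate 3 within exon 32, which has 7243 nt. The 3 SCAF8 IP lists gave 0 of 84978 clusters, which allows up to 0.353 per 10000 (3 counts, counting error only), and the 9 inputs gave 0 of 72277. PLEC thus had no cluster in the inputs either, and the lists hold no expression values that would show whether its RNA was present. The PLEC isoform was 67.0% GC and 13.8% T on the transcribed strand, compared with 41.6% GC and 24.3% T for DST. PARalyzer clusters need T positions, and the part of base composition in the PLEC count was not tested.

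Ordered by clusters per 10000 in SCAF4 IP, MACF1 came first, then DST, SPTBN1, SPTAN1 and PLEC. The lists of DST and MACF1 overlapped in SCAF4 IP, as did those of SPTBN1 and SPTAN1, so neighbors within each pair did not differ beyond their spread. All 3 lists of DST and of MACF1 lay above those of the spectrins. These are numbers per gene and not per length, and the isoforms of the spectrins have 8229 nt (SPTAN1) and 10226 nt (SPTBN1).

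**Figure D1:**
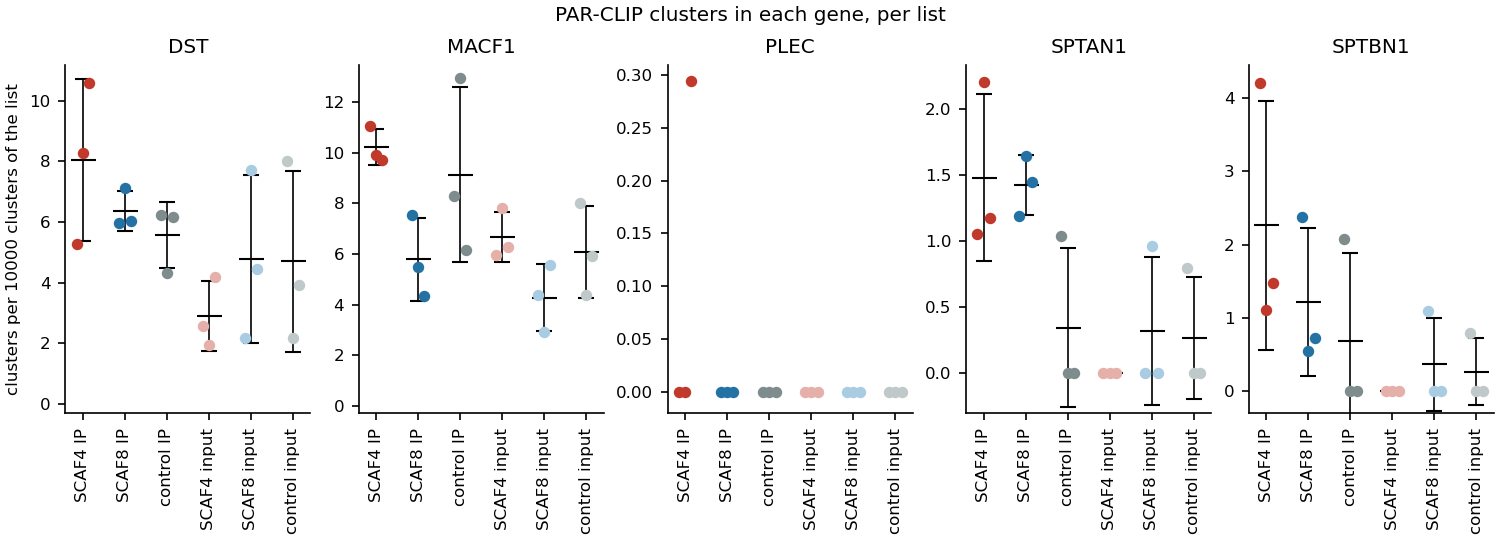
Clusters per 10000 clusters of the list (y axis, a separate scale for each gene) for the 6 groups of lists, with 1 point per replicate list, and mean ± SD (n = 3) in black except for PLEC. MACF1 lay at 9.72 to 11.1 in SCAF4 IP and at 4.34 to 7.54 in SCAF8 IP, and PLEC was at 0 in 17 lists.

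To place these orders, the same comparison was made for every gene with a cluster. In 20.8% of genes all 3 SCAF4 IP lists lay above the 3 inputs of the line, and DST, MACF1, SPTAN1 and SPTBN1 were among them. All 3 SCAF8 IP lists lay above their inputs in 11.1% of genes, and of the 5 genes this held for SPTAN1. SCAF4 IP lay above control IP in 24.4% of genes and SCAF8 IP above control IP in 17.4%, and SPTAN1 was again the 1 of the 5 genes in both. SCAF4 IP lay above SCAF8 IP in 6.98% of genes, among them MACF1, and SCAF8 IP above SCAF4 IP in 4.19%, with none of the 5 genes. Since the cluster numbers chose the genes, nothing is read from these counts.

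The difference between the 2 proteins was fitted over all genes with limma, on log2(clusters per 10000 + 1), which understates changes of genes with few clusters. Of 7953 genes tested, 39 (0.49%) were higher in SCAF4 IP and 37 (0.465%) higher in SCAF8 IP at a Benjamini-Hochberg adjusted p under 0.05, and none of the 5 genes was among them. Without SCAF8 IP replicate 1, 176 and 124 genes passed, and MACF1 was among the former. This was the only 1 of 15 alternative fits in which MACF1 passed, and nothing is read from it. Since clusters of the same lists chose the 5 genes, their differences are given with the SE of the fit and no p. MACF1 was 0.75 higher in SCAF4 IP on the log2 scale (SE 0.25), with 3 of 3 SCAF4 lists above all SCAF8 lists. DST differed by 0.26 (SE 0.26), SPTBN1 by 0.53 (SE 0.34) and SPTAN1 by 0.01 (SE 0.25), and the lists of both proteins overlapped in each of these 3 genes. PLEC had too few clusters to be fitted.

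High-confidence sites were then counted by a rule rebuilt from the study's text. Clusters that overlapped were merged. A region became a consensus cluster of a protein if 2 or more of its 3 replicates held it, and joined the pooled set of both proteins if 2 or more of the 6 SCAF IP lists did. Overlap with clusters of more than 1 input, or with any control IP cluster, removed a region. A density of 1 or more merged input regions per 10 kb removed the gene, and none of the 5 genes reached that limit (at most 0.39 in MACF1). Over all genes the rebuilt rule left 10445 SCAF4 and 5387 SCAF8 consensus clusters. These sets are smaller than those of the study, and the counts and ranks here hold for the rebuilt sets. DST held 23 SCAF4, 9 SCAF8 and 25 pooled consensus clusters, and ranked sixth of 5593 genes with a pooled consensus cluster. MACF1 held 18, 3 and 22 and shared rank 8 with 2 other genes. Numbers of consensus clusters chose the 5 genes, so nothing is read from the ranks. SPTAN1 held 3, 1 and 7, SPTBN1 held 4, 2 and 4, and PLEC held none. At least 1 consensus cluster was found for SCAF4 in 50%, for SCAF8 in 33.4% and for the pooled set in 64.6% of the 8660 genes under the input limit, and 4 of the 5 genes had 1 in each set.

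The counts moved when a replicate was left out, which also turned the rule for a protein into 2 of 2 replicates. Without replicate 2 of every group, DST held 5 and MACF1 8 SCAF4 consensus clusters. Without replicate 3 DST held 5 SCAF4 consensus clusters and 1 for SCAF8. Without replicate 1 DST held 27 SCAF4 consensus clusters, and with all 3 replicates needed it also held 5. Per kb of the longest isoform, DST held 1.01 pooled consensus clusters, MACF1 0.90, SPTAN1 0.85 and SPTBN1 0.39. The median of the 5593 genes was 0.50 per kb with quartiles at 0.27 and 0.95, so that DST alone lay above the upper quartile and SPTBN1 lay below the median.

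**Figure D2:**
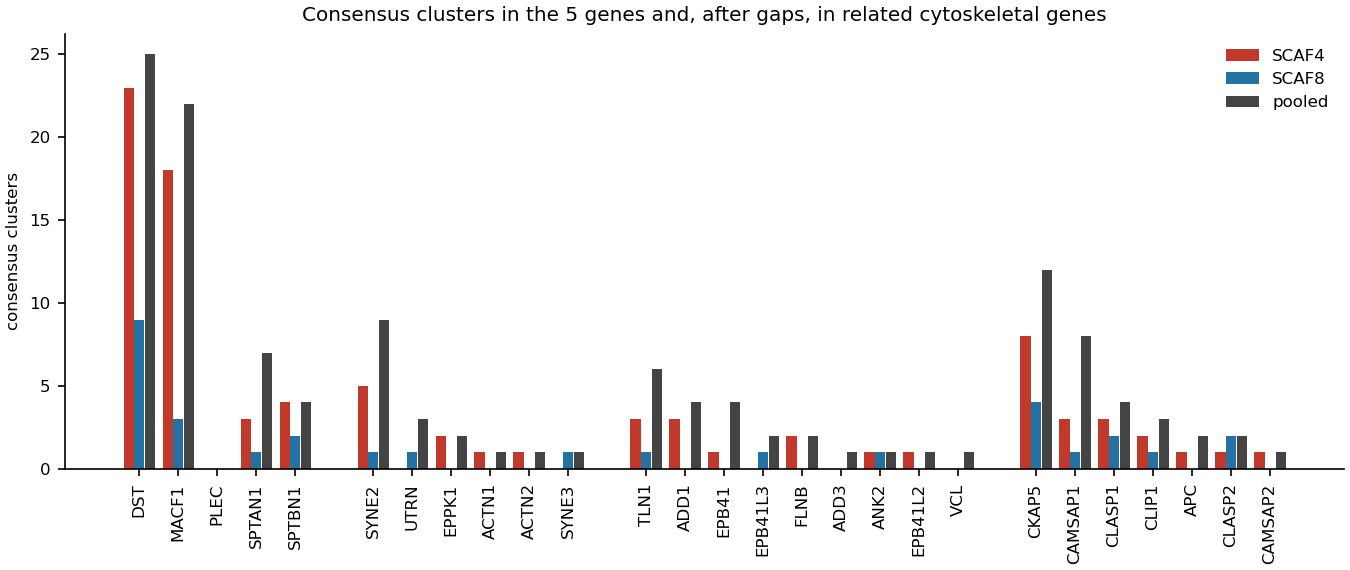
Numbers of SCAF4 (red), SCAF8 (blue) and pooled (grey) consensus clusters per gene (y axis) in the 5 genes and, after each gap, in genes with at least 1 pooled consensus cluster among plakin and spectrin repeat relatives, membrane skeleton and actin linkers, and microtubule end partners. Of the genes plotted, DST with 25 and MACF1 with 22 held the most pooled consensus clusters, and CKAP5 followed with 12.

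DST and MACF1 held more consensus clusters than any related cytoskeletal gene counted, whereas several relatives held more than SPTAN1, SPTBN1 and PLEC. Since such counts chose the 5 genes, the lead of DST and MACF1 is partly built in and is only described. Of 17 plakins and spectrin repeat proteins other than the 5 genes, 9 had a cluster in any list, and 7 of these lay under the input limit. A pooled consensus cluster was held by 6 of the 7, compared with 64.6% of all genes with a cluster and under the limit, and the median was 0 over the 17 genes. SYNE2, a nesprin of the outer nuclear membrane, held 9, utrophin (UTRN), a relative of dystrophin, 3, EPPK1 2, and ACTN1, ACTN2 and SYNE3 1 each. Of 16 membrane skeleton and actin linkers, 10 had clusters and lay under the limit and 9 held at least 1, with a median of 1 over the 16. They were led by talin 1 (TLN1), which ties integrins to actin, with 6, by α-adducin (ADD1) and protein 4.1R (EPB41), which strengthen spectrin-actin junctions, with 4 each, and by EPB41L3 with 2. Of 12 microtubule end partners, 8 had clusters and lay under the limit and 7 held at least 1, with a median of 1.5 over the 12. CKAP5, a microtubule polymerase, held 12, CAMSAP1, which binds microtubule minus ends, 8, CLASP1 4 and CLIP1 3. In all, 4 genes of these lists, DSP and ACTN4 among them, lay over the input limit and could not hold a consensus cluster. By number SPTAN1, with 7, stood below SYNE2, CKAP5 and CAMSAP1, and SPTBN1, with 4, also below TLN1. Per kb of the longest isoform the order changed. CKAP5 held 1.67 pooled consensus clusters per kb, above DST with 1.01, and CAMSAP1 held 0.998, above MACF1 with 0.90, whereas SYNE2 held 0.41.

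Across the 18 lists, the genes whose clusters per 10000 were most like those of DST were CEP95 (Pearson r = 0.791 over 18 lists), SUDS3 (0.791), PAN2 (0.787) and MARCHF5 (0.771), of 3284 genes compared. Among the 5 genes, SPTAN1 correlated with DST at 0.768, SPTBN1 at 0.398 and MACF1 at 0.226. The points share libraries of different size, and the correlations are given as a description.

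Merging the clusters of all 18 lists gave 141 regions in the 5 genes, of which 139 held SCAF4 or SCAF8 clusters (53 in DST, 62 in MACF1, 13 in SPTAN1, 10 in SPTBN1 and 1 in PLEC). Of these, 61 held clusters of both proteins, 69 of SCAF4 alone and 9 of SCAF8 alone. SCAF4 alone accounted for 18 regions found in at least 2 replicates, and SCAF8 alone for 0. Of the 18 regions, 4 were found in 3 of 3 SCAF4 lists, all 4 in MACF1. This split was not counted over all genes, where SCAF4 consensus clusters (10445) also outnumbered those of SCAF8 (5387). The study attributes its own excess of SCAF4 sites most likely to technical reasons, and nothing is read from the split here. Regions of a single SCAF list numbered 60, and 38 of them came from SCAF4 IP replicate 2, the largest list. In comparison, 14 regions were found in all 6 SCAF IP lists, 8 of them in MACF1 and 4 in DST.

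The regions found in the most SCAF lists were also those found in inputs and control IP. Of the 60 regions in 1 SCAF list 3 (5%) held an input or control IP cluster. The share was 8.70% of 23 regions in 2 lists, 21.1% of 19 in 3 lists, 42.9% of 14 in 4 lists, 77.8% of 9 in 5 lists and 92.9% of 14 in 6 lists. Of the 14 regions in all SCAF lists, 2 remained in the pooled consensus, those in exons 25 and 58 of MACF1. DST exons 74, 78, 92 and 104 were found in all 6 SCAF lists and also in 5, 2, 3 and 3 inputs. A region of 320 nt in MACF1 that covers exons 73 and 74 and the intron between them was found in all 18 lists. Conversely, all 23 control IP clusters of the 5 genes, all 20 of the FLAG-SCAF4 inputs, 26 of 28 of the FLAG-SCAF8 inputs and all 30 of the parental inputs lay on a SCAF region. In other genes these shares were 97.2%, 93.3%, 90.6% and 87.4%.

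Clusters lay mostly in exons. In the 6 SCAF IP lists, 87.2% ± 2.55 (SD, n = 6) of the clusters in the 5 genes had the midpoint in an exon of the longest isoform, with values from 83.7 to 90.2%. In other protein-coding genes the share was 64.9% ± 3.88 in the same lists (60.3 to 71.6%), so that the 5 genes lay higher in each list. In the 9 inputs the share in the 5 genes was 80.5% ± 10.6 (SD, n = 9) from 3 to 22 clusters per list, and in control IP it was 96.1% ± 6.79 (SD, n = 3) from 23 clusters in all. Other genes gave 59.2% ± 8.34 in the inputs and 70.9% ± 8.34 in control IP, so that the 5 genes lay above other genes by the group means there too. SCAF IPs exceeded the inputs of the same extracts by 3.85 percentage points with an SD of 12.8 over 6 pairs and in 4 of 6 pairs. The exonic share in DST, 75.9% ± 5.25 in SCAF4 IP and 75.9% ± 8.72 in SCAF8 IP (SD, n = 3), was below those in MACF1, 92.1% ± 4.41 and 94.6% ± 5.27. Between SCAF4 and SCAF8 IP, the exonic shares gave a two-sided p of 1 in DST and 0.5 in MACF1 by exact permutation, where 3 lists against 3 cannot go below 0.1.

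Of the 139 SCAF regions, 117 lay in exons of the longest isoform, 114 of them in coding sequence and 3 in untranslated regions. Another 14 lay in exons of other isoforms, and 8 in introns, among them the MACF1 region over exons 73 and 74, whose midpoint lies in the intron. The exons of other isoforms were mostly first exons. In DST, a region of 443 nt in 3 SCAF4 and 2 SCAF8 lists lay in the first exon of DST-206 and DST-207, and 4 regions lay in the first exon of DST-203, which has 1925 nt. In MACF1, a region in 3 SCAF4 lists lay in the first exon of a shorter coding isoform. Among introns, DST introns 67 and 93 held a region in 2 SCAF4 and 3 SCAF8 lists each, but also in 4 and 5 inputs.

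Regions were about as long as a typical internal exon. Their median length was 157 nt, and that of internal exons of DST and MACF1 was 155 nt in each. Of the 117 exonic regions 56 covered at least 90% of their exon, and 61 crossed an exon end. DST exon 69 (207 nt) and exon 90 (129 nt) were covered whole, each by a region in 2 SCAF4 and 2 SCAF8 lists and in no input or control IP. SPTBN1 exon 14 (871 nt) was covered to 97.7% by a region in all 6 SCAF lists, with clusters of 1 control IP and 2 inputs.

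The longest exons held few regions for their length. Exons of at least 1000 nt held 12.3% ± 2.30 (SD, n = 6) of the exonic clusters of the 5 genes in the SCAF IP lists, compared with 36.4% ± 4.47 in other protein-coding genes, although they made up 36.9% of the exonic length of the 5 genes and 29.4% without PLEC. In the 9 inputs the share was 14.7% ± 11.3 (SD, n = 9), compared with 54.3% ± 3.25 in other genes. Per kb, 0.49 SCAF regions were found in exons of at least 1000 nt, 1.20 in those of 300 to 999 nt, 2.17 in those of 200 to 299 nt, 2.44 in those of 100 to 199 nt and 0.20 in those under 100 nt. The inputs also gave few clusters there, with 11 in exons of at least 1000 nt and 33 in exons of 100 to 199 nt, which have a similar summed length of 27442 nt against 30495 nt. In exons under 100 nt, 1 of 68 held a SCAF region. The shortest SCAF cluster of the 5 genes had 66 nt, and the part of cluster length in the low density of short exons was not tested.

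**Figure D3:**
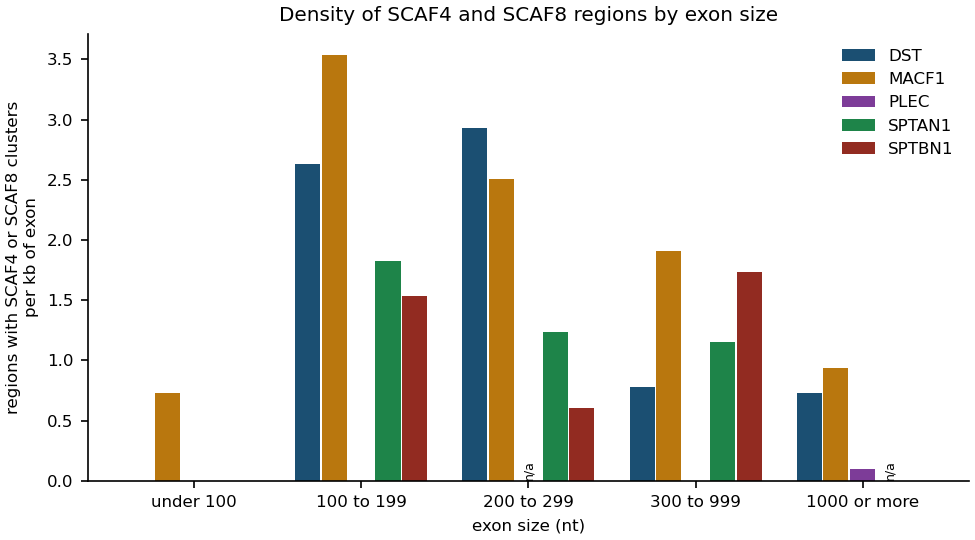
SCAF4 or SCAF8 regions per kb of exon (y axis, merged regions over all lists) by exon size in nt (x axis) for each gene, with n/a where a gene has no exon of that size and no bar where it has no region. Exons of 100 to 299 nt held the most regions per kb in DST and MACF1, and those of at least 1000 nt held 0.73 in DST and 0.94 in MACF1.

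The giant exons were counted over all lists of a group. DST exon 40, with 5508 nt the longest exon of DST, held 3 SCAF4 clusters, 1 SCAF8 cluster and 2 input clusters, which is 0.73 SCAF clusters per kb, whereas the DST exons under 1000 nt held 5.77 per kb. MACF1 exon 37 (5451 nt) held 8 SCAF4 clusters, 0 SCAF8 clusters and 2 input clusters, or 1.47 per kb against 7.59 in exons under 1000 nt. Of its 4 regions, 2 were found in all 3 SCAF4 lists. Exon 40 of DST was 37.6% GC and 27.0% T, compared with 43.3% and 23.1% in the shorter exons, and exon 37 of MACF1 was 41.8% and 24.2%, compared with 47.9% and 21.9%. The part of base composition in these counts was not tested. GENCODE lists 41 isoforms for DST and 58 for MACF1, and the lists do not show which of them the cells made. How much of the RNA contained exon 40 of DST or exon 37 of MACF1 is therefore unknown, and its part in these counts was not tested. Both genes have another long exon of 1472 nt. In DST (exon 61) it held 3 SCAF clusters, in MACF1 (exon 58) 12, which is 8.15 per kb and close to the MACF1 exons under 1000 nt. The last exon of SPTBN1, with 3095 nt mostly untranslated, held 0 clusters, and the last exon of DST, with 1272 nt, held 10 SCAF clusters in 2 regions.

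**Figure D4:**
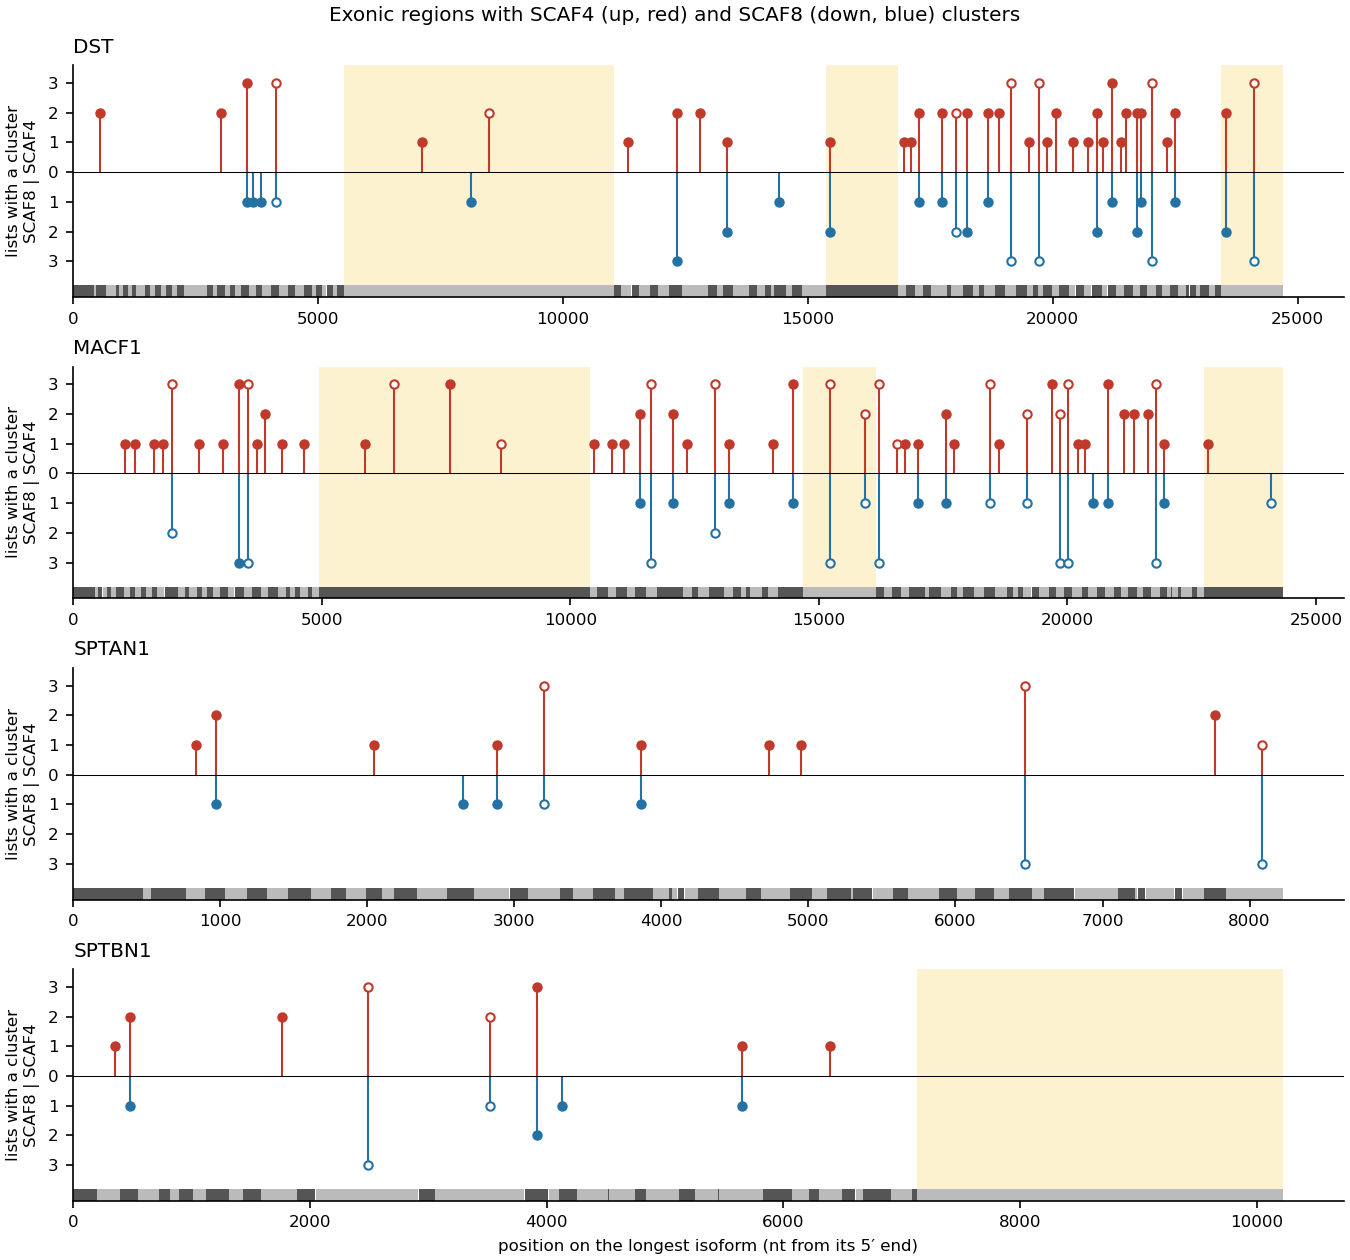
Merged exonic regions along the longest isoform (x axis, nt from the 5′ end) of DST, MACF1, SPTAN1 and SPTBN1. Height is the number of SCAF4 (red, up) and SCAF8 (blue, down) lists with a cluster, open circles also held an input or control IP cluster, the grey bar shows exons in turn, and yellow marks exons of at least 1000 nt. In DST 21 of 42 regions lay in the last of 4 equal parts, and in SPTBN1 none did.

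Along the mRNA, SCAF regions of DST were found mainly toward the 3′ end. Of 42 exonic regions, 6, 5, 10 and 21 lay in the first to the last of 4 equal parts of the isoform. Regions that also held input clusters lay at 73.0 to 97.5% of it in exons 68, 74, 78, 92 and 104. In exons 29 and 40 such regions lay at 16.7 and 34.4%. The shorter isoform DST-203 begins within intron 61, and its part in this order was not tested. In DST-241, a stretch of 17 exons from exon 4 to exon 20, with 2280 nt, had no SCAF cluster. MACF1 regions were spread more evenly, with 14, 9, 13 and 17 in these parts, and the first 7 exons held none. SPTAN1 had 3, 4, 2 and 3 and SPTBN1 had 4, 3, 2 and 0. The mean position of SCAF4 and SCAF8 clusters was compared within each gene. In MACF1 it was at 55.1% ± 1.77 of the isoform for SCAF4 and 60.3% ± 2.79 for SCAF8 (SD, n = 3), and the exact permutation test gave its lowest possible p of 0.1, because the lists did not overlap. In DST it was 66.8% ± 2.53 and 73.1% ± 9.34 (exact permutation test, p = 0.4), in SPTAN1 55.2% ± 4.10 and 65.2% ± 9.72 (exact permutation test, p = 0.3), and in SPTBN1 27.4% ± 3.24 and 29.9% ± 4.74 (exact permutation test, p = 0.4). In each of the 4 genes, which share the same lists, the SCAF8 mean lay further 3′. In DST, however, SCAF8 replicate 3 lay at 62.3%, below all 3 SCAF4 lists (64.9 to 69.7%). Clusters at sites shared with inputs or control IP were included. The share of all genes with this order was not counted, so nothing is read from the common direction. No difference in mean position could reach 0.05 with 3 lists against 3. With the exonic shares these were 8 tests, and no p was adjusted because none fell below 0.05.

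Most SCAF8 consensus clusters of the 5 genes overlapped SCAF4 consensus clusters. This held for 12 of 15, or 80%, compared with 57.4% of 4827 in other genes. The 15 clusters share lists and genes and are not independent, so the difference was not tested. Numbers of consensus clusters chose the genes, and the part of that choice in the difference was not tested either. Of 48 SCAF4 consensus clusters 13, or 27.1%, overlapped SCAF8 ones, compared with 28.2% in other genes. In DST 7 of 9 and in MACF1 3 of 3 SCAF8 consensus clusters overlapped. Without replicate 3 the share was 40% of 5 SCAF8 consensus clusters.

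The study concerned transcripts that end early. GENCODE lists 17 distinct 3′ ends for DST, of which 8 lie more than 10000 nt upstream of the end of the gene, and 3 of the 8 had the midpoint of a SCAF region within 1000 nt. For MACF1 this was 3 of 9 early ends, for SPTAN1 2 of 6 and for SPTBN1 1 of 1. PLEC had no such end. In SPTBN1 the nearest region upstream of the early end was 2984 nt away, so the region within 1000 nt was not upstream. The SCAF regions counted here include those shared with inputs or control IP. The share of such ends in other genes was not counted, so nothing is read from these counts. These are annotated ends in any tissue, and use of them was not measured in the lists.

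DST and MACF1 arose from a common ancestor and could be compared exon by exon. After alignment of the encoded proteins, 48.9% of 7340 aligned residues were identical, and 100 exon pairs were formed, 85 of them of equal length. Both exons held a SCAF region in 23 pairs, DST alone in 15, MACF1 alone in 25 and neither in 37. MACF1 thus held a region in 60.5% of the pairs in which DST held 1 and in 40.3% of the others. Of all exons under 100 nt, 0 of 18 in DST and 1 of 17 in MACF1 held a region. Pairs were not compared at like exon size, so the part of exon size in these shares was not tested. When 39 DST regions were placed on MACF1 through the alignment, 19 lay within 50 nt of a MACF1 region, with a median distance of 52 nt over all 39. The distance expected from exon size and the number of MACF1 regions was not computed, so nothing is read from these distances. The pair with the most SCAF lists among those without input clusters, DST exon 69 in 4 and MACF1 exon 66 in 3 SCAF lists, is shown because 24 of 30 bases were identical, with identical bases in capitals.
DST exon 69, chr6:56526467-56526496, minus strand: gGAaCTGGTaCCaTGGAGgGCaAGAGAAGG
MACF1 exon 66, chr1:39430773-39430802, plus strand: aGAgCTGGTgCCcTGGAGaGCcAGAGAAGG

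DST exon 29 and MACF1 exon 26 coincided more closely, with aligned midpoints at a distance of 0 nt and with clusters in 4 and 6 SCAF lists, but also in 1 and 3 inputs. The exon 74 and exon 71 regions lay 1 nt apart and were found in 5 and 2 inputs.

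Finally, short motifs were searched in 100 nt around the middle of the pooled consensus clusters on the transcribed strand. The study had reported these motifs as overrepresented in its SCAF sites from the same libraries. A higher share in the regions is therefore partly built in, and the regions are no independent test of the motifs. CGG or CGA was found in 44 of 58 regions of the 5 genes (75.9%), compared with 71.8% of 15207 regions in other genes. GCAGG, or a variant of it with C as the first or the last letter, was found in 50% and 44.8%, and CTCC or CACC in 44.8% and 49.0%. In DST, CGG or CGA was found in 76% of 25 regions but in 43.2% of all windows of 100 nt along its mRNA, and GC content was 46.1% ± 7.51 (SD over 25 regions) in the regions and 41.6% in the mRNA. In MACF1, CGG or CGA was found in 68.2% of 22 regions and 54.5% of windows, with 50.2% ± 4.92 GC in the regions and 46.0% in the mRNA. In SPTAN1 the shares were 85.7% of 7 regions and 78.0% of windows, and in SPTBN1 all 4 regions held it, against 75.7% of windows. The other motifs did not lie on one side of the windows. The GCAGG group was found in 40% of DST regions and 40.4% of windows, in 63.6% and 51.6% in MACF1, in 71.4% and 61.9% in SPTAN1, and in none of 4 regions against 56.8% of windows in SPTBN1. For CTCC or CACC the shares were 56% and 36.9% in DST, 40.9% and 50.6% in MACF1 and 75% and 51.8% in SPTBN1, and none of the 7 SPTAN1 regions held it, against 48.5% of windows. Letters in a window say nothing on their own about binding, and the part of GC content in the difference was not tested.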

How the data were processed

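Of 36 PAR-CLIP libraries, the authors trimmed reads (Trim Galore with cutadapt), aligned them to GRCh38 with Bowtie2 2.2.9, removed duplicates (Picard), joined the fractions of each replicate and called clusters with PARalyzer. The 18 lists they deposited give positions and an unnamed score per cluster, and the score was used only to rank clusters. Replicate 1 was read at another length than replicates 2 and 3. Members and lists of related genes were chosen with earlier results of these data known, and 1 gene of these lists is not reported here. Named genes were the 5 members, up to 4 genes per list with the most pooled consensus clusters and the 4 most correlated with DST, which had to have clusters in at least 9 lists.

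A midpoint within a member's body was assigned to that member first. Consensus clusters were rebuilt from the study's text with input lists as the unit of the overlap filter and flanks of 2000 nt for the density limit, and totals were lower than the study's. Limma ran without a variance trend on genes with clusters in at least 3 of 6 lists, with a pseudocount of 1 per 10000, and was tested on simulated data. Proteins were aligned globally (Biopython 1.88) from the annotated coding sequence. Same-numbered SCAF4 and SCAF8 IP lists correlated at 0.340, −0.055 and 0.171 after removal of group means, so replicate numbers were not used as pairs between the proteins. IP and input of the same number share an extract. Columns of the authors' own comparisons were not present in the lists used. Python 3.11.15, numpy 2.4.6, scipy 1.17.1, pysam 0.24.0, matplotlib 3.10.9 and R 4.3.3 with limma 3.58.1 were used.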

Additional observations from a re-analysis of the deposited data

How the results depend on the processing

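The pooled consensus clusters of the 5 genes, 58 as reported, were 36 when 3 of 6 lists were needed, 30 for clusters at or above the median score, and 36 to 64 without 1 replicate. SCAF4 consensus clusters, 48 as reported, were 16 with all 3 replicates, 17 at the median score and 16 to 56 without 1 replicate. SCAF8 consensus clusters, 15 as reported, were 5 with all 3 replicates and 5 to 16 without 1 replicate. Where 1 replicate was left out, 2 lists were still needed. The exonic share of 87.2% was 94.1% with the exons of all isoforms and 82.5% at the median score, and the share in exons of at least 1000 nt, 12.3% as reported, was 19.7% and 17.0%. The overlap of SCAF8 with SCAF4 consensus clusters, 80%, was 40% to 87.5% without 1 replicate. The share of list clusters in the 5 genes was 1.91 times that of the inputs of the same lines, 7.48 times without scaling to the list and 2.56 times by covered nucleotides. Control IP held 15.8 ± 2.96 (SD, n = 3) per 10000 in the 5 genes, between 22.1 ± 0.99 in SCAF4 IP and 14.8 ± 2.27 in SCAF8 IP. Cluster numbers chose the genes, so these ratios are descriptions.

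Genes called by limma, 39 higher in SCAF4 and 37 in SCAF8, were 226 and 143 with the replicate number as a block, 17 and 10 with a pseudocount of 0.5, 13 and 12 for genes with a cluster in any of 6 lists, 12 and 11 with scaling to the median ratio, 93 and 25 with all 18 lists, and 6 and 16 at the median score. Leaving out 1 list gave 4 to 176 and 3 to 124, with the extremes without SCAF8 IP replicate 3 and replicate 1. An exact permutation test of each gene called 0 and 0, since its smallest p is 0.1. With the variance trend in limma, chosen after seeing the data, 28 and 27 genes were called. The paired exonic difference was 3.85 percentage points with the replicate block too, which cannot change a mean over complete pairs. SPTAN1 turned to −0.22 at the median score, −0.19 without SCAF4 IP replicate 2 and −0.07 without SCAF8 IP replicate 1, with −0.19 to 0.13 over the lists left out in turn. The cause of these changes was not tested. The lists give no reads, and list size limits which regions can recur.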
